A study of Sus scrofa with 12 samples.

Results

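Glutathione and redox defense genes were followed at 2 weeks of age in the porcine oxyntic mucosa, which lines the body of the stomach and secretes its acid. The members were all genes whose annotated symbol begins with GPX, GST, MGST, PRDX, TXN, GCL, GLRX, HMOX or SOD and a digit, together with CAT, NQO1, GSS, GSR, KEAP1 and NFE2L2. The rule used the names alone and no measured value, but the members were chosen with earlier results of these data known. Their counts beside those of all genes are therefore a description. The rule found 41 of the 10882 named genes of the array, measured by 48 of its 27558 features. Familiar enzymes of the same families, among them HMOX1, GPX1, GPX4, SOD1, SOD3, MGST1 and GSTP1, were not analysed here.

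The complex association (CA) piglets, 6 in number, were inoculated with diluted feces of an adult sow after the simple starter microbiota, and the 6 simple association (SA) piglets were given a placebo in place of the feces. All 12 were crossbred piglets, (Great York × Pietrain) × 'Dalland', delivered by cesarean section, artificially fed, and all had first received the same starter of Lactobacillus amylovorus, Clostridium glycolicum and Parabacteroides spp. One array was made from the RNA of every piglet, and the values below are log2 of the deposited array intensity. The groups were kept in separate rooms, so that room and microbiota cannot be told apart, and litter, sex and pen are not labelled per piglet.

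Glutathione, the main small thiol of the cell, is made by glutamate-cysteine ligase and glutathione synthetase and is kept reduced by glutathione reductase. Peroxidases, transferases and glutaredoxins spend it on peroxides, reactive chemicals and oxidized proteins, while the peroxiredoxins do similar work with electrons from thioredoxin. The transcription factor NRF2, encoded by NFE2L2 and marked for degradation as a protein by KEAP1, is known to drive many of these genes, including GCLC, GCLM, NQO1 and TXNRD1. In the stomach these systems stand beside acid, dietary oxidants and the mitochondria-rich parietal cells.

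The array medians lay between 56.2 and 57.6 in the CA and between 55.6 and 57.4 in the SA piglets, on the linear intensity scale. The defining gene of the oxyntic mucosa was bright, with ATP4A, the acid pump, between 11.82 and 12.22 in the CA and between 11.69 and 12.19 in the SA piglets. Of 5 intestinal marker genes SI, FABP2 and CDX2 were dim (mean log2 levels 2.68, 3.34 and 4.15), but MUC2 (9.57) and VIL1 (9.68) were bright. The summed log2 level of the 5 was 10.17 to 11.07 in the CA and 10.19 to 11.36 in the SA piglets, and their part in the results was not tested. CA piglet 4 lay away from the other 11 along the leading principal component (24.6% of the variance), and its array weight of 0.267 was the smallest. All 7 measured parietal cell genes had a higher mean in CA piglets, 4 of them at an unadjusted limma p under 0.05. Of all genes 52.6% had a higher mean there, and 2.06% were higher at that threshold. The summed log2 level of the parietal genes was 13.22 to 13.74 in the CA and 12.96 to 13.73 in the SA piglets. Among the other marker genes LCK of T cells (log2 fold change -0.22) and CD14 of macrophages (0.15) passed the same threshold. Both were dim, at mean log2 levels of 5.10 and 5.41, below the median of all features (5.82). CD14 was the only 1 of 5 measured macrophage genes with a higher mean in CA piglets, and 4 were lower. Of 5 T cell genes, 4 were lower, LCK included, and CD2 was higher (0.05). In these bulk samples fewer cells of a type and less RNA per cell cannot be told apart.

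The redox genes differed little between CA and SA piglets, and 0 of the 41 passed limma's adjusted p of 0.05, as did 0% of the 10882 genes (lowest adjusted p 0.999). At an unadjusted limma p under 0.05 there were 3 members (7.32%), against 3.28% of all genes. These were GSTO1, PRDX5 and GLRX3, all lower in the CA piglets, where 1.22% of all genes were lower and 2.06% were higher at that threshold. Of the 41 members, 18 (43.9%) had a higher mean in CA piglets, against 52.6% of all genes, and the median log2 fold change was -0.01 against 0.01 over all genes. In 28 members the log2 fold change lay between -0.1 and 0.1. The 95% interval of the difference stayed within 0.5 on the log2 scale either way in 38 members, so that at 6 piglets per group a change beyond that size lay outside the interval for those genes. The groups overlapped in every member, and groups without overlap were rare over all genes too (0.129%).

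**Figure D1:**
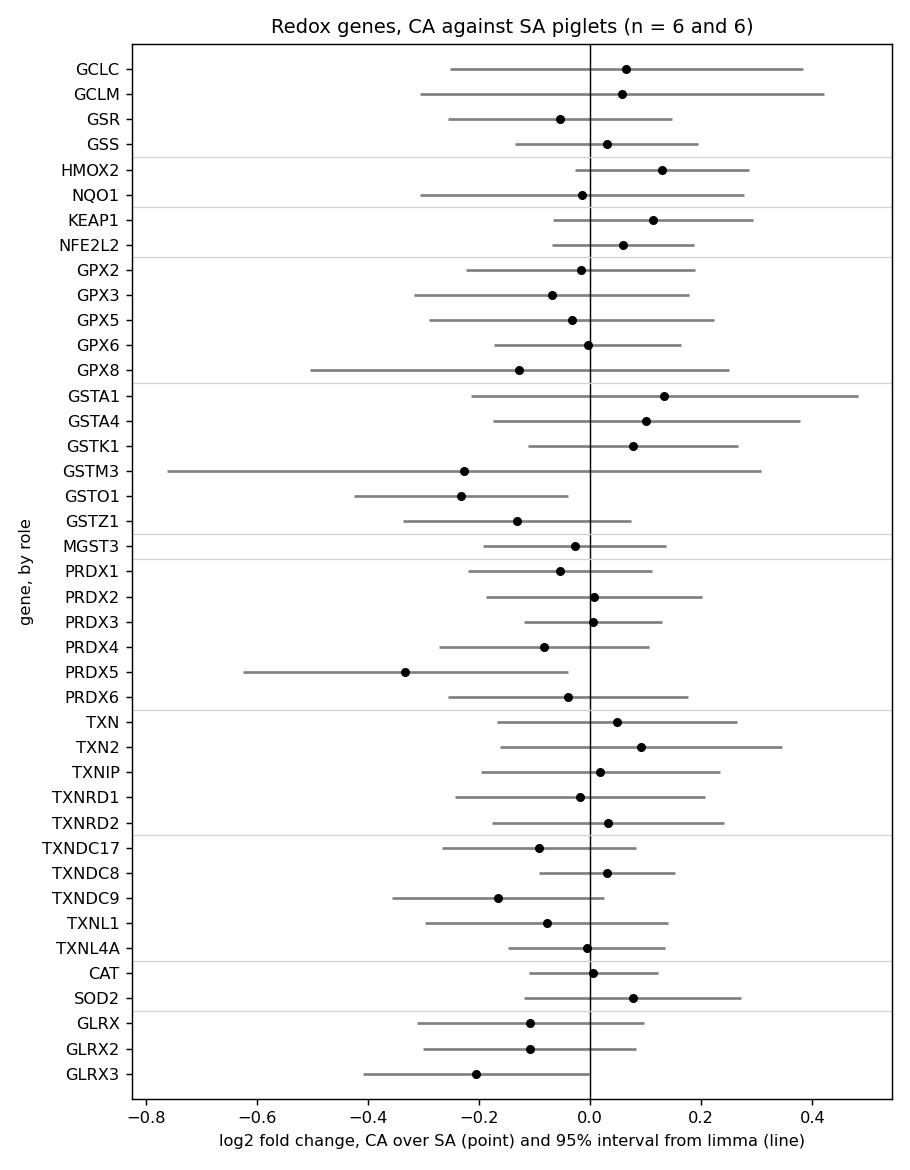
Log2 fold change of the 41 redox genes, CA over SA piglets (x axis, points), with the 95% interval from limma (lines), ordered by role down the page. The intervals of GSTO1, PRDX5 and GLRX3 lie below 0, and those of the other 38 genes include 0.

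The enzymes that make and recycle glutathione had means close to each other in both groups. GCLC, the catalytic subunit of glutamate-cysteine ligase, was 8.37, 8.48 and 9.17 (lowest, median and highest piglet) in the CA and 8.27, 8.55 and 8.83 in the SA piglets (log2 fold change 0.07, SE 0.15, exact permutation p = 0.70). GCLM, the modifier subunit, was 7.65, 7.90 and 8.29 in the CA and 7.11, 7.96 and 8.36 in the SA piglets (log2 fold change 0.06, SE 0.17). SA piglet 9 was the low one for both subunits within its group, and for GCLM it lay far below the other 11 piglets.

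GSS, glutathione synthetase, was 7.71, 7.95 and 8.14 in the CA and 7.77, 7.91 and 8.09 in the SA piglets (log2 fold change 0.03, SE 0.08). GSR, glutathione reductase, which returns oxidized glutathione to its reduced form, was 10.22, 10.37 and 10.74 in the CA and 10.23, 10.47 and 10.68 in the SA piglets (log2 fold change -0.05, SE 0.09). The ranges of both genes lay almost on top of each other in the 2 groups.

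The regulators of the pathway overlapped between the groups over most of their ranges. NFE2L2 was 11.19, 11.33 and 11.42 in the CA and 11.19, 11.24 and 11.37 in the SA piglets, with a log2 fold change of 0.06 (SE 0.06, exact permutation p = 0.23). It was among the steadiest members, with a within-group SD of 0.08. KEAP1 was 8.65, 8.69 and 9.04 in the CA and 8.49, 8.61 and 8.85 in the SA piglets (log2 fold change 0.11, SE 0.08, exact permutation p = 0.21). All 6 CA piglets lay above the SA median of KEAP1, and the highest was CA piglet 4, without which the log2 fold change was 0.06.

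NQO1, the quinone reductase that is widely read as a marker of NRF2 activity, was 10.71, 10.98 and 11.49 in the CA and 10.65, 11.08 and 11.27 in the SA piglets. Its log2 fold change of -0.01 (SE 0.14, exact permutation p = 0.93) stood beside a spread of 0.26 (within-group SD), so the piglets of a group differed from each other far more than the group means did. HMOX2, the constitutive heme oxygenase, was 8.66, 8.79 and 9.05 in the CA and 8.59, 8.66 and 8.82 in the SA piglets. The log2 fold change was 0.13 (SE 0.07, limma p = 0.096, exact permutation p = 0.069). In 5 of the 6 CA piglets HMOX2 lay above the SA median, and CA piglet 4 was the highest. Without it the log2 fold change was 0.08.

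GSTO1, an omega class transferase that reduces mixed disulfides and dehydroascorbate, had the smallest p of the family. It was 8.47, 8.72 and 8.87 in the CA and 8.64, 8.94 and 9.11 in the SA piglets, with means of 8.68 ± 0.16 and 8.92 ± 0.16 (SD, n = 6 each), a fold of 0.851. All 6 CA piglets lay below the SA median, but SA piglet 9 lay within the CA range. The log2 fold change was -0.23 (SE 0.09, unadjusted limma p = 0.021, exact permutation p = 0.037), with an adjusted p of 0.999. The value rests on 2 array features that hold identical values and are therefore a single measurement.

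The other transferases went in both directions. GSTZ1, which isomerizes maleylacetoacetate in tyrosine breakdown, was 7.02, 7.34 and 7.46 in the CA and 7.19, 7.46 and 7.64 in the SA piglets (log2 fold change -0.13, SE 0.10), with all 6 CA piglets below the SA median. GSTM3, a mu class transferase, was 8.80, 9.42 and 9.88 in the CA and 8.81, 9.85 and 10.20 in the SA piglets (log2 fold change -0.23, SE 0.25, and -0.39 without SA piglet 11 or -0.10 without CA piglet 6). GSTM3 was the most variable member, with a within-group SD of 0.49 that exceeded 98.0% of all genes, and it was low in CA piglet 6 and SA piglet 11 alike.

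The 3 transferases with a positive log2 fold change were GSTA1 at 0.13 (SE 0.16), GSTA4, which conjugates hydroxynonenal, at 0.10 (SE 0.13), and GSTK1, the kappa class enzyme of mitochondria and peroxisomes, at 0.08 (SE 0.09). Both features of GSTA1 pointed the same way. The microsomal transferase MGST3 was 10.05, 10.26 and 10.39 in the CA and 10.05, 10.31 and 10.40 in the SA piglets (log2 fold change -0.03, SE 0.08). None of these 4 genes had an unadjusted limma p under 0.05.

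All 5 measured glutathione peroxidases had a slightly lower mean in CA piglets, with a median log2 fold change of -0.03 and a lowest limma p of 0.48; the sign of GPX6 turned with array weights, and those of GPX2, GPX3, GPX5 and GPX6 when single piglets were left out. GPX8, of the endoplasmic reticulum, was 6.09, 6.53 and 7.05 in the CA and 6.29, 6.59 and 7.27 in the SA piglets (log2 fold change -0.13, SE 0.17, and -0.0041 without SA piglet 11). GPX3, the secreted peroxidase of plasma, was 6.83, 7.04 and 7.20 in the CA and 6.73, 7.11 and 7.44 in the SA piglets (log2 fold change -0.07, SE 0.12). GPX2, the peroxidase of the gastrointestinal epithelium, was nearly level, at 10.16, 10.49 and 10.71 in the CA and 10.28, 10.51 and 10.70 in the SA piglets (log2 fold change -0.02, SE 0.10).

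GPX5 and GPX6, known from the epididymis and the olfactory epithelium, and TXNDC8, known from the testis, were the 3 members whose mean log2 level lay below 5.82, the median of all features. GPX5 was 2.96, 3.30 and 3.71 in the CA and 3.18, 3.27 and 3.61 in the SA piglets, a level at which array background cannot be told apart from expression.

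Catalase and the mitochondrial superoxide dismutase stood level. CAT was 10.31, 10.39 and 10.51 in the CA and 10.32, 10.39 and 10.46 in the SA piglets. The log2 fold change was 0.01 (SE 0.05) with a 95% interval of -0.11 to 0.12. Its within-group SD of 0.06 was the smallest of the family, and only 2.78% of all genes varied less. SOD2 was 9.43, 9.78 and 9.93 in the CA and 9.51, 9.62 and 9.82 in the SA piglets (log2 fold change 0.08, SE 0.09), with the lowest CA value in piglet 3.

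Among the peroxiredoxins PRDX5 stood out by its size. PRDX5, which reduces peroxides in mitochondria, peroxisomes and the cytosol, was 7.91, 8.23 and 8.59 in the CA and 8.24, 8.55 and 8.95 in the SA piglets, a fold of 0.794. The log2 fold change of -0.33 (SE 0.14) had an unadjusted limma p of 0.029, an exact permutation p of 0.056 and an adjusted p of 0.999. In 5 of 6 CA piglets PRDX5 lay below the SA median, and CA piglets 3, 4 and 6 lay within the SA range.

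PRDX4, the peroxiredoxin of the endoplasmic reticulum, was 8.15, 8.34 and 8.39 in the CA and 8.16, 8.37 and 8.68 in the SA piglets (log2 fold change -0.08, SE 0.09). PRDX1, a cytosolic peroxiredoxin, was 10.55, 10.58 and 10.85 in the CA and 10.43, 10.72 and 10.84 in the SA piglets (log2 fold change -0.05, SE 0.08), and its dimmer second feature, at a mean of 5.80, pointed the other way (0.07). PRDX6, PRDX3 and PRDX2 had log2 fold changes of -0.04, 0.01 and 0.01, and those of PRDX3 and PRDX2 were just below 0 under median centring. The mitochondrial PRDX3 was as steady as NFE2L2, with a within-group SD of 0.08.

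The thioredoxin system proper showed 4 of 5 genes with a higher mean in CA piglets and a lowest limma p of 0.45. The signs of TXN, TXNIP, TXNRD1 and TXNRD2 turned when single piglets were left out. TXN, cytosolic thioredoxin, was 10.83, 11.05 and 11.43 in the CA and 10.81, 11.10 and 11.22 in the SA piglets (log2 fold change 0.05, SE 0.10). TXNRD1, its reductase, was 9.07, 9.22 and 9.64 in the CA and 9.11, 9.23 and 9.53 in the SA piglets (log2 fold change -0.02, SE 0.10). TXNIP, the inhibitor that binds reduced thioredoxin, was 10.76, 11.04 and 11.29 in the CA and 10.83, 10.94 and 11.31 in the SA piglets (log2 fold change 0.02, SE 0.10, and just below 0 under median centring). These ranges overlapped over nearly their whole length. The mitochondrial TXN2 and TXNRD2 had log2 fold changes of 0.09 (SE 0.12) and 0.03 (SE 0.10).

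Of the thioredoxin-domain and thioredoxin-like proteins, 4 of 5 had a lower mean in CA piglets, though the sign of TXNL1 and TXNL4A turned when single piglets were left out. TXNDC9, which binds the chaperonin that folds actin and tubulin, was 8.31, 8.42 and 8.54 in the CA and 8.36, 8.58 and 8.92 in the SA piglets. All 6 CA piglets lay below the SA median of TXNDC9, and the log2 fold change was -0.17 (SE 0.09, limma p = 0.084, exact permutation p = 0.091). TXNDC17 and the proteasome-associated TXNL1 had log2 fold changes of -0.09 (SE 0.08) and -0.08 (SE 0.10). TXNL1 was lowest in CA piglet 4, at 9.23, with the other 11 piglets higher, and without it the log2 fold change was 0.02.

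All 3 glutaredoxins had a lower mean in CA piglets, a direction that held in all 19 alternative settings, with 1 of them at an unadjusted limma p under 0.05. GLRX3, a glutaredoxin of iron-sulfur cluster delivery, was 7.70, 8.01 and 8.36 in the CA and 8.12, 8.25 and 8.33 in the SA piglets, a fold of 0.868. Its log2 fold change was -0.20 (SE 0.09, unadjusted limma p = 0.049, exact permutation p = 0.061, adjusted p 0.999). The SD was 0.23 over the CA and 0.08 over the SA piglets (n = 6 each). The lowest value was that of CA piglet 4, and without it the log2 fold change was -0.14 and limma's unadjusted p no longer under 0.05. The cytosolic GLRX was 7.44, 7.76 and 7.97 in the CA and 7.67, 7.86 and 8.08 in the SA piglets, and the mitochondrial GLRX2 was 5.61, 5.85 and 6.08 in the CA and 5.73, 5.95 and 6.23 in the SA piglets, each with a log2 fold change of -0.11 (SE 0.09).

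**Figure D2:**
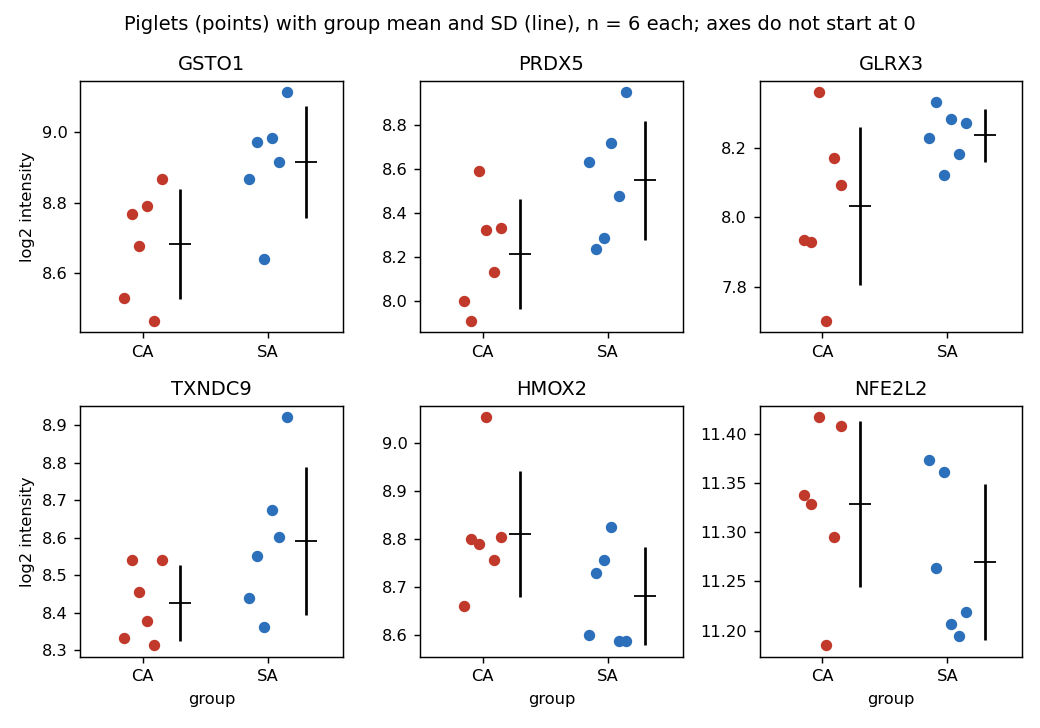
Log2 intensity (y axes, not starting at 0) of 6 genes in each CA (left, red) and SA (right, blue) piglet, with the mean and SD of 6 piglets per group beside the points. GSTO1, PRDX5, GLRX3 and TXNDC9 had lower means in CA piglets and HMOX2 and NFE2L2 higher ones, and the groups overlap in every panel.

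The calls of GSTO1, PRDX5 and GLRX3 were sensitive to single piglets. Without SA piglet 12, the highest of its group for GSTO1 and PRDX5, the number of members at an unadjusted limma p under 0.05 was 0, with log2 fold changes of -0.19 for GSTO1, -0.25 for PRDX5 and -0.20 for GLRX3. It was 1 without CA piglet 2, CA piglet 5, SA piglet 7 or SA piglet 10. The direction of all 3 genes remained the same whichever piglet was left out.

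The other genes of the pathway that were measured, 72 of 145 listed, included 8 at an unadjusted limma p under 0.05, all higher in the CA piglets, and 0 at an adjusted p under 0.05 (lowest 0.999), where 3.28% of all genes had such an unadjusted p and 2.06% were higher. The number was 3 without CA piglet 2, 4 without SA piglet 7 or SA piglet 10, and 5 without SA piglet 11 or SA piglet 12. The lists were chosen with earlier results of these data known. The shares of all genes therefore give a scale for the counts, here and below, and no test of them. Of the 19 further NRF2 targets and partners there were 2 of these 8. SQSTM1, the autophagy receptor that also binds KEAP1, was 9.70, 9.92 and 10.27 in the CA and 9.29, 9.64 and 9.72 in the SA piglets (log2 fold change 0.35, SE 0.10, exact permutation p = 0.0043). BACH1, a repressor of NRF2 target genes, had a log2 fold change of 0.22 (SE 0.10, exact permutation p = 0.022).

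Of 14 genes of glutathione precursors and breakdown, 4 had an unadjusted limma p under 0.05, all higher in the CA piglets, where 2.06% of all genes were. CHAC1, an enzyme that degrades glutathione in the cytosol, was 6.71, 7.44 and 9.32 in the CA and 6.12, 6.59 and 7.63 in the SA piglets (log2 fold change 0.98, SE 0.42, exact permutation p = 0.067). The gamma-glutamyltransferase family members GGT5 and GGT6, which belong to the enzymes that break down glutathione outside the cell, had log2 fold changes of 0.19 (SE 0.07) and 0.15 (SE 0.07). SLC1A4, a carrier of small neutral amino acids, had one of 0.51 (SE 0.21). GGT5 and GGT6 were dim, at mean log2 levels of 5.31 and 4.99, below the median of all features (5.82). CHAC1 was spread widely within both groups, and its highest value was that of CA piglet 2.

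None of the 10 genes of NADPH supply had an unadjusted limma p under 0.05 (lowest 0.27), and the count was also 0 of 3 for metallothioneins and methionine sulfoxide reductases. Of the 17 oxidant producers 1 had, DAO, the D-amino acid oxidase that releases hydrogen peroxide, at a log2 fold change of 0.57 (SE 0.23, exact permutation p = 0.058). DUOXA2, the maturation factor of an epithelial dual oxidase, varied the most of them, at 6.02, 6.56 and 8.64 in the CA and 6.09, 7.81 and 9.37 in the SA piglets (log2 fold change -0.91, SE 0.58, exact permutation p = 0.21). Of 9 other selenium genes 1 had an unadjusted limma p under 0.05, SECISBP2L, with a log2 fold change of 0.21 (SE 0.09). Over all genes 3.28% had such a p and 2.06% were higher in CA piglets with it. Single genes in short lists are not set apart from these shares.

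Members also varied between the piglets of a group. The within-group SD of the members had a median of 0.17, against 0.16 over all genes, with 30 members under 0.2 and 4 above 0.3 (GSTM3, GPX8, GCLM and GSTA1). After each group's mean had been subtracted, 104 of 820 pairs of members (12.7%) had an unadjusted permutation p under 0.05 across the 12 piglets, 83 with a positive and 21 with a negative correlation. Over all 446121 relations of members with every gene of the table the share was 10.8%, so the share among members stood near the background. No pair passed adjustment over those relations (lowest adjusted p 0.0744). The genes share arrays and tissue pieces, and the correlations describe bulk tissue.

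**Figure D3:**
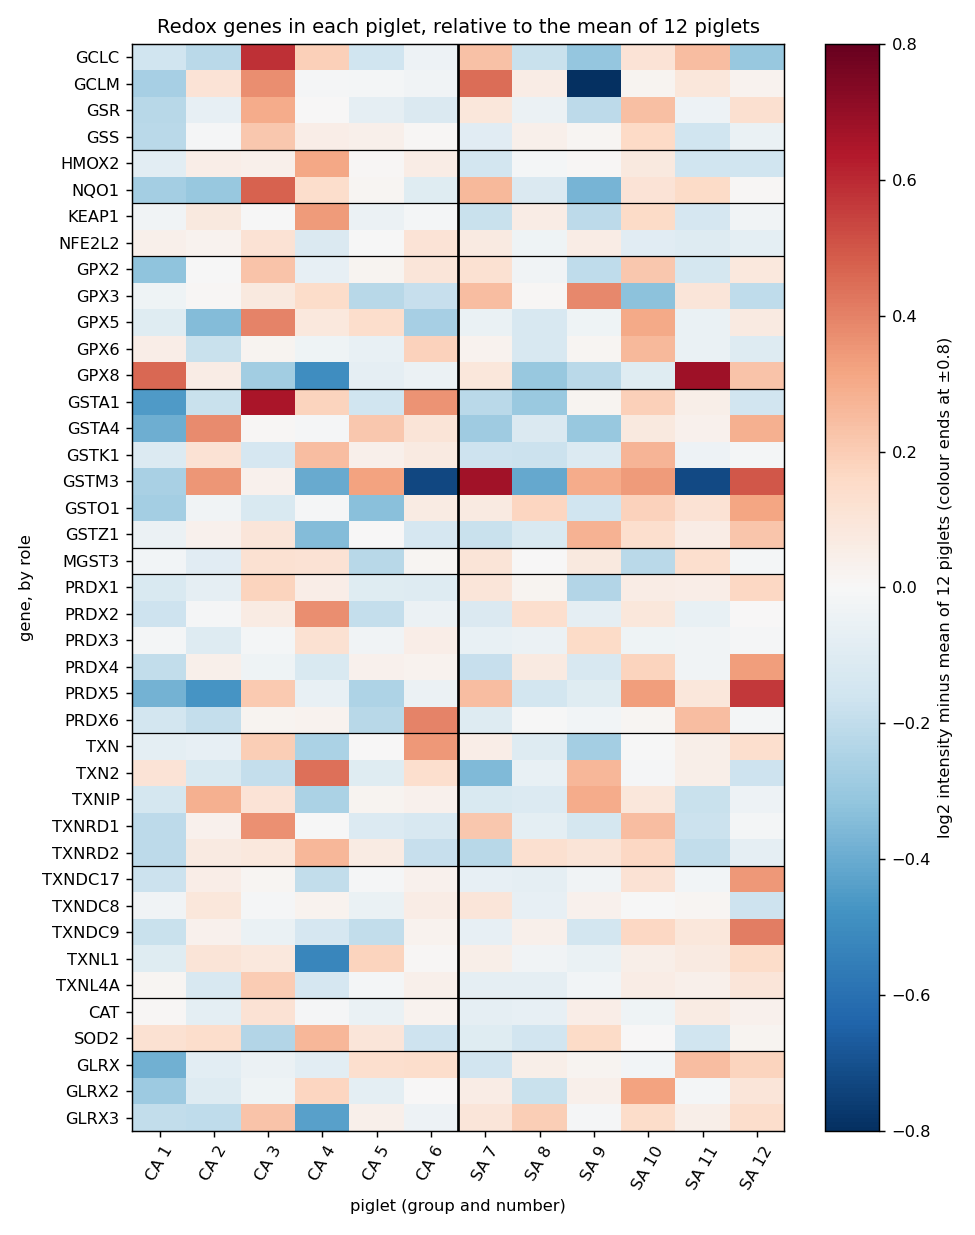
Log2 intensity of the 41 redox genes (rows, by role) in each CA (left) and SA (right) piglet, minus the gene's mean over the 12 piglets; red is above and blue below that mean. CA piglet 3 is red for GCLC, GCLM, GSR, NQO1, GSTA1 and TXNRD1, and SA piglet 9 is blue for GCLC, GCLM, NQO1 and PRDX1.

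The pairs below are the 10 with the smallest permutation p, together with the leading inverse pairs, and none passed adjustment. GCLC and NQO1 had a Pearson's r of 0.89 (permutation p = 3e-05, adjusted p 0.0744) and a Spearman's rho of 0.89 (p = 0.00019), with r of 0.93 within CA and 0.84 within SA piglets, and 0.82 without CA piglet 3 and SA piglet 11, the piglets farthest from the median of GCLC. GSR and TXNRD1, the reductases of glutathione and of thioredoxin, had an r of 0.90 (permutation p = 0.00014, adjusted p 0.0952; rho 0.88, p = 0.0003; 0.97 within CA and 0.80 within SA piglets, 0.72 without the 2 farthest). GSR and PRDX1 had an r of 0.86 (permutation p = 0.00047, adjusted p 0.122; rho 0.90, p = 0.00014; 0.95 within CA and 0.79 within SA piglets, 0.91 without the 2 farthest).

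PRDX4 was related to TXNDC9 (r = 0.86), TXNDC17 (r = 0.86) and GSTA4 (r = 0.85), and GSTO1 to TXNDC9 (r = 0.83), all 5 genes being highest in SA piglet 12 within its group. GPX2 and GSR had an r of 0.85. KEAP1 and PRDX2 had an r of 0.87, and HMOX2 and TXNRD2 one of 0.83; CA piglet 4 was an extreme in both, and without it and SA piglet 10 the values were 0.74 and 0.74. Over these 7 pairs the permutation p lay between 0.00027 and 0.00064, the adjusted p between 0.11 and 0.132, rho between 0.77 and 0.91, and r without the 2 farthest piglets between 0.72 and 0.81. By permutation p the first inverse pair was GPX8 and TXNRD2 (r = -0.80, permutation p = 0.00135, adjusted p 0.159; rho -0.81; -0.82 within CA and -0.79 within SA piglets, -0.72 without the 2 farthest), while GPX3 and PRDX4 had a slightly more negative r (-0.80, permutation p = 0.00185, adjusted p 0.172; rho -0.85; -0.48 within CA and -0.89 within SA piglets, -0.78 without the 2 farthest).

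NQO1 was taken as an anchor after these values had been seen, so its relations are a description. Of the other 40 members, 9 (22.5%) had an unadjusted permutation p under 0.05 against NQO1, all with a positive r, where the share was 8.47% over all genes. These were GCLC (0.89), PRDX1 (0.83), GSR (0.82), GCLM (0.75), PRDX5 (0.73), TXNRD1 (0.69), GPX5 (0.69), GPX2 (0.64) and GSTA1 (0.58), with rho between 0.50 and 0.89. The adjusted p was 0.0744 for GCLC, or 0.088 in a separate set of resamples. For the other 8 it lay between 0.151 and 0.452 in the first set. Without CA piglet 3 alone there were 7 members, 5 of them shared with the 9. Without CA piglet 3 and SA piglet 9 the r of these genes lay lower, at 0.43 for TXNRD1 and 0.39 for GPX2. Of the 10 genes, NQO1 included, 8 were highest in CA piglet 3, while the lowest piglet was CA piglet 1 for 4, SA piglet 9 for 4 and CA piglet 2 for 2. GPX5 lies in the dim range named above, and its r was 0.90 within CA and 0.23 within SA piglets.

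The mRNA of the regulators had an r with NQO1 of -0.07 for NFE2L2 (permutation p = 0.83) and of 0.15 for KEAP1 (permutation p = 0.64). SOD2 had the most negative r of the members, -0.51 (permutation p = 0.088, adjusted p 0.552).

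**Figure D4:**
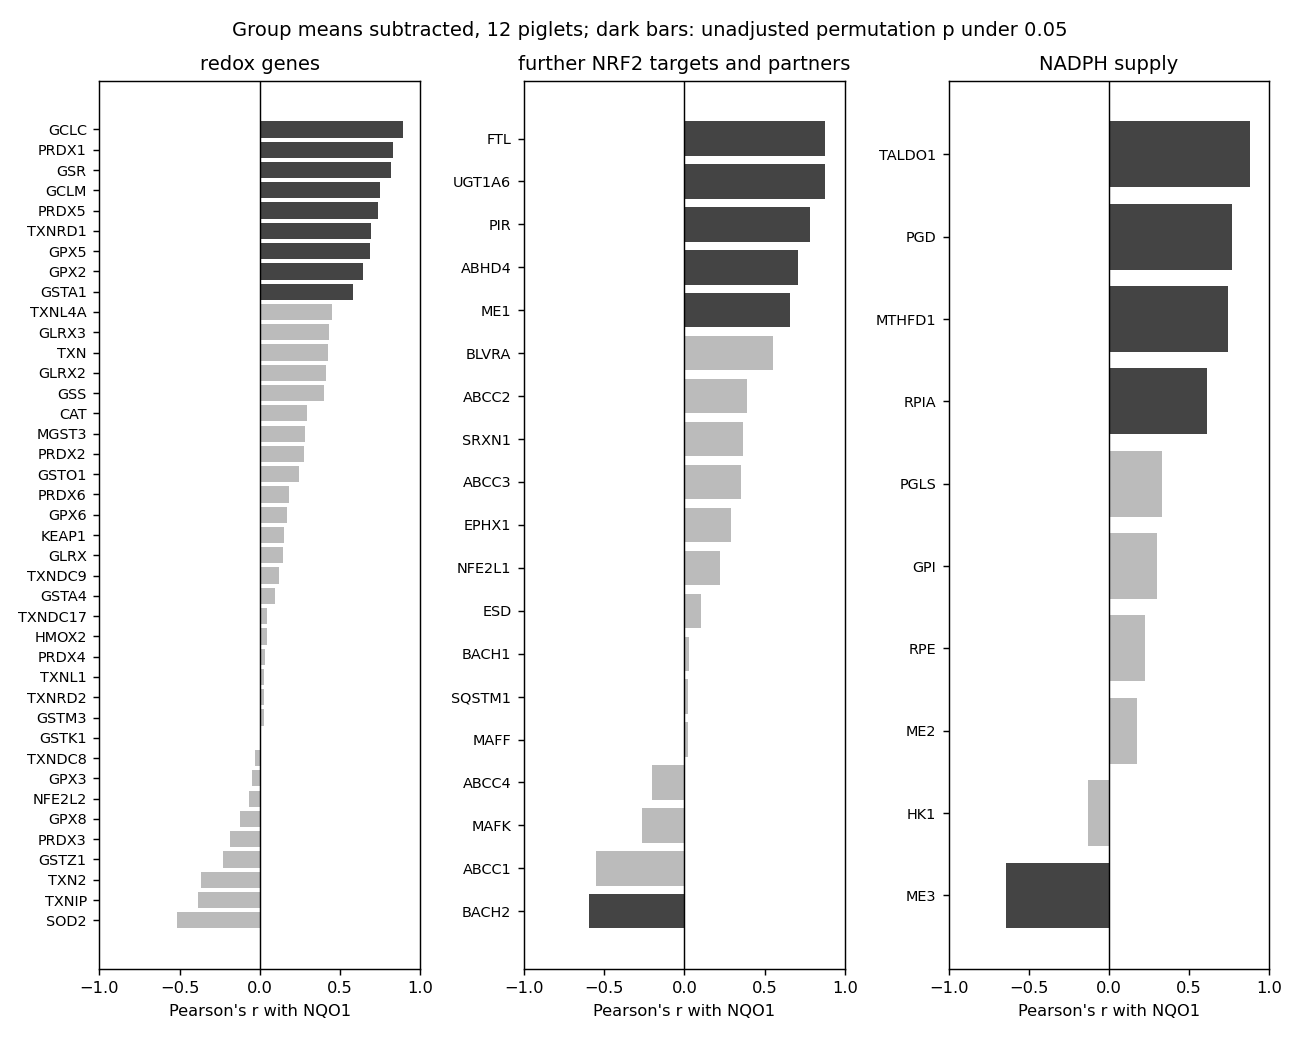
Pearson's r with NQO1 (x axes) across 12 piglets, group means subtracted, for the 40 other redox genes (left), 19 further NRF2 targets and partners (middle) and 10 genes of NADPH supply (right). Dark bars have an unadjusted permutation p under 0.05, which applies to 9 redox genes.

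The same relation was taken for genes outside the family, where 8.47% of all genes had an unadjusted permutation p under 0.05 against NQO1. Of 19 further NRF2 targets and partners, 5 had a positive relation at an unadjusted permutation p under 0.05, namely FTL, the ferritin light chain (r = 0.88), UGT1A6, a glucuronosyltransferase (r = 0.88), PIR (r = 0.79), ABHD4 (r = 0.71) and ME1, the cytosolic malic enzyme (r = 0.66), and 1 a negative one, the repressor BACH2 (r = -0.59). Of 10 genes of NADPH supply, 4 were positive, TALDO1 (r = 0.88), PGD (r = 0.76), MTHFD1 (r = 0.74) and RPIA (r = 0.61), and the mitochondrial malic enzyme ME3 was negative (r = -0.64). TALDO1, PGD and RPIA are enzymes of the pentose phosphate pathway. None of these relations passed adjustment (lowest adjusted p 0.0904, for UGT1A6). Without CA piglet 3 and SA piglet 9 r was 0.55 to 0.77 for FTL, UGT1A6, PIR and ABHD4, 0.29 for ME1, -0.44 for BACH2, 0.78 for TALDO1, 0.48 for PGD, 0.61 for MTHFD1, 0.46 for RPIA and -0.33 for ME3. The 17 oxidant producers had 0 positive and 2 negative relations, NOS3 and NCF4. Of 14 genes of glutathione precursors and breakdown, 2 were positive, GLO1 (r = 0.71) and AHCY (r = 0.60), and 0 negative. Without CA piglet 3 and SA piglet 9 the r of these 2 genes was 0.37 and 0.39. The 3 metallothionein and methionine sulfoxide reductase genes and the 9 other selenium genes had 0 relations at that threshold.

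**Figure D5:**
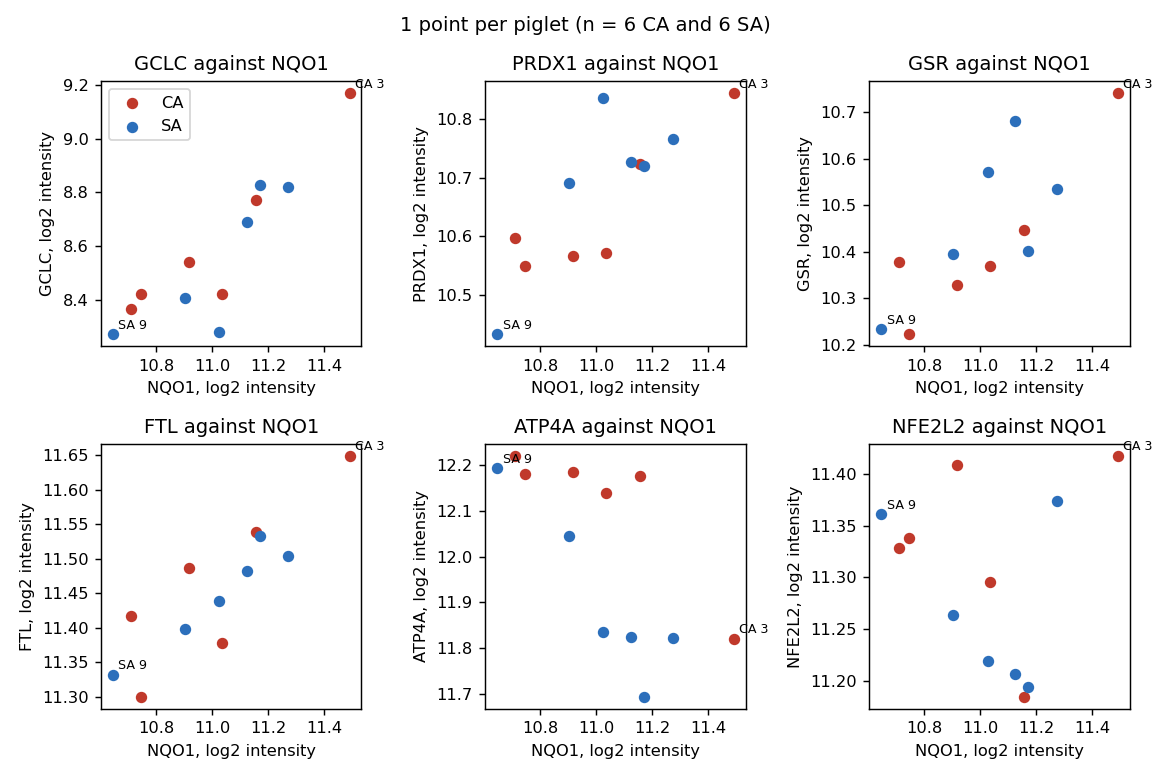
Log2 intensity of GCLC, PRDX1, GSR, FTL, ATP4A and NFE2L2 (y axes) against that of NQO1 (x axes), 1 point per CA (red) or SA (blue) piglet, with CA piglet 3 and SA piglet 9 named. GCLC and FTL follow NQO1 over both groups, and ATP4A runs opposite to it. NFE2L2 has an r of -0.07 with NQO1 after group means are subtracted, which the plotted values are not.

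The members were also set against 1 gene each of parietal, chief and surface mucous cells. Group means were not subtracted here, so a difference between the groups enters these r. Across the 12 piglets 6 of the 41 members (14.6%) had an unadjusted permutation p under 0.05 against ATP4A, where the share was 10.8% of all genes, close to that of the members. PRDX5 (r = -0.79), PRDX1 (r = -0.77), NQO1 (r = -0.72), GSR (r = -0.71) and GLRX3 (r = -0.66) were negative and SOD2 (r = 0.61) was positive, with adjusted p between 0.302 and 0.562. Spearman's rho was -0.85 to -0.69 for the negative relations and 0.63 for SOD2, and without CA piglet 3 and SA piglet 11, farthest from the median of ATP4A, r was -0.87 to -0.67 and 0.43. Within groups the r of NQO1 was -0.87 in CA and -0.91 in SA piglets, that of PRDX5 was -0.77 in CA and -0.62 in SA piglets, and that of GLRX3 was -0.74 in CA and -0.19 in SA piglets.

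Against PGC, the pepsinogen gene of chief cells, 6 members (14.6%) had an unadjusted permutation p under 0.05, all negative, where the share was 5.85% of all genes. These were GCLC (r = -0.74), PRDX1 (r = -0.73), GCLM (r = -0.73), NQO1 (r = -0.71), TXNRD1 (r = -0.61) and GSR (r = -0.59), with rho between -0.73 and -0.54 and adjusted p between 0.315 and 0.574. Without CA piglet 3 and SA piglet 9 they lay between -0.53 and -0.26. Against GKN1, of surface mucous cells, there were 2 members (4.88%), TXNIP (r = 0.65) and PRDX1 (r = -0.63), with rho of 0.58 and -0.59 and adjusted p of 0.5 and 0.523, where the share was 8.85% of all genes.

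ATP4A itself had a higher mean in the CA piglets (log2 fold change 0.22, SE 0.09, exact permutation p = 0.058). PRDX5 and GLRX3 were lower there, so part of their negative r with ATP4A can come from the group differences. Within groups both kept a negative r, which for GLRX3 in SA piglets was only -0.19. GSTO1 had an r of -0.54 with ATP4A, 0.12 within CA and -0.60 within SA piglets. The part of the cell composition in the differences of these 3 genes was not tested.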

How the data were processed

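Gene expression of the oxyntic mucosa was analysed in 12 piglets, 6 CA and 6 SA, grouped by their labels, with 1 array each. The authors used an Affymetrix porcine gene array with Robust Multichip Analysis, and the deposited intensities are background corrected, quantile normalized and linear; they were converted to log2. A shift of all genes alike would not show in quantile normalized values. The number of sample columns not used is 0. The sources differ on the first feed (colostrum or serum) and the RNA kit, and the labels' protocol also speaks of jejunal loops.

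The platform annotation gave a single symbol for 11939 features and several for 416, and 15203 were unnamed here; the brightest feature was used for 958 genes with several. CA was compared with SA by lmFit and eBayes of limma 3.58.1 in R 4.3.3, with Benjamini-Hochberg adjustment over all 10882 genes, no filter and no covariate. Single values had a two-sided exact permutation test of the 924 splits (smallest p 0.00216). Correlations had two-sided permutation p from 100000 resamples in Python 3.11.15 with numpy 2.4.6, adjusted over all 446121 relations of members with every gene, or over 32643 of ATP4A, PGC and GKN1. The plan adjusted over the members or pairs alone; this was widened, and calls at an unadjusted p are read against the share of all genes. The fit and the correlations were tested on simulated data.

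Named genes were members with an unadjusted limma p under 0.05, up to 3 per role and pathway list by p, and GCLC, GCLM, GSS, GSR, CAT, NQO1, KEAP1, NFE2L2, TXN, TXNRD1, TXNIP and SOD2; others were added with their values known. The members and lists were chosen with earlier results of these data known. Alternatives were the mean of a gene's features, dim features left out, repeated quantile normalization, median centring, trend and robust moderation, array weights, every feature tested, and leaving out each piglet. Arrays carry no depth, and their number and signal over background limit precision.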

Additional observations from a re-analysis of the deposited data

Results flagged for a closer look

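In 82 groups of 6 piglets, 1 for each member and treatment, 7 values stood far from the rest of their group (Dixon's test, critical value 0.625), where chance flags 5% of groups, about 4.1. GCLM in SA piglet 9 was 7.11, against 7.94 to 8.36 in the other SA piglets. PRDX1 in SA piglet 9 was 10.43, against 10.69 to 10.84. PRDX3 in SA piglet 9 was 10.41, above the other SA piglets at 10.20 to 10.25. HMOX2 in CA piglet 4 was 9.05, against 8.66 to 8.80 in the other CA piglets, and KEAP1 in the same piglet was 9.04, against 8.65 to 8.77. GSTK1 in SA piglet 10 was 8.02, against 7.58 to 7.73. PRDX6 in SA piglet 11 was 9.86, against 9.51 to 9.63.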

How the results depend on the processing

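Under the other settings run, 0 members passed an adjusted limma p of 0.05, and the number at an unadjusted p was 2 or 3; it was 0 to 4 with 1 piglet left out. Members with a higher mean in CA piglets numbered 14 to 19 under other settings and 12 to 23 with 1 piglet left out. Median centring moved the median of all genes by -0.02 and quantile normalization again by -0.01. Of 776 recomputed member fold changes, 59 changed sign when a piglet was left out and 11 otherwise, in 20 members whose log2 fold changes were at most 0.08 in size, and 21 members, GSTO1, PRDX5 and GLRX3 included, kept their sign throughout. The sign turned with the mean of features for PRDX1 (0.0073), with quantile normalization again for NQO1 (0.0063), with median centring for CAT (-0.012), PRDX2 (-0.011), PRDX3 (-0.013) and TXNIP (-0.00012), and with array weights for GCLC (-0.013), GCLM (-0.024), GPX6 (0.0017), PRDX2 (-0.056) and PRDX3 (-0.0012). The cause was not tested. With 1 piglet left out the ranges were -0.016 to 0.022 for CAT, -0.046 to 0.12 for GCLC, -0.10 to 0.15 for GCLM, -0.064 to 0.046 for GPX2, -0.14 to 0.0013 for GPX3, -0.12 to 0.034 for GPX5, -0.042 to 0.047 for GPX6, -0.011 to 0.076 for GSS, -0.074 to 0.013 for MGST3, -0.11 to 0.045 for NQO1, -0.066 to 0.046 for PRDX2, -0.019 to 0.037 for PRDX3, -0.12 to 0.0064 for PRDX6, -0.015 to 0.10 for TXN, -0.036 to 0.080 for TXNIP, -0.12 to 0.018 for TXNL1, -0.047 to 0.020 for TXNL4A, -0.093 to 0.029 for TXNRD1, -0.017 to 0.077 for TXNRD2. In 18 more members leaving out 1 piglet moved the log2 fold change by over 1.5 times without turning its sign, -0.23 to -0.0041 for GPX8, -0.39 to -0.10 for GSTM3, 0.017 to 0.24 for GSTA1, 0.036 to 0.19 for GSTA4, 0.035 to 0.14 for GSTK1, 0.032 to 0.13 for SOD2, 0.013 to 0.15 for TXN2, -0.13 to -0.024 for PRDX4, -0.11 to -0.025 for PRDX1, -0.12 to -0.012 for GSR, -0.15 to -0.041 for GLRX, -0.16 to -0.056 for GLRX2, 0.056 to 0.16 for KEAP1, -0.18 to -0.075 for GSTZ1, -0.12 to -0.031 for TXNDC17, -0.21 to -0.10 for TXNDC9, 0.081 to 0.16 for HMOX2, 0.00067 to 0.053 for TXNDC8. Of these, PRDX1 turned sign only with the mean of features, as given above.

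Pathway genes outside the family at an unadjusted limma p under 0.05 numbered 6 to 9 under other settings and 3 to 10 with 1 piglet left out. Counts at an unadjusted permutation p, whose alternatives were chosen after seeing the data, were 10 for ATP4A with quantile normalization again, and 1 for GKN1 with median centring and with quantile normalization again. With 1 piglet left out they were 7 to 13 for NQO1 (13 without CA piglet 4), 5 to 9 for ATP4A, 4 to 7 for PGC, 0 to 4 for GKN1 (0 without SA piglet 9) and 87 to 117 for the pairs. The paper states that litter, body weight and gender were balanced over the groups. No analysis by litter was possible because litter is not labelled per piglet. Among the members dim signal limits GPX5, GPX6 and TXNDC8.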

Other observations

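Over the whole table the genes whose pattern across the 12 piglets was most like that of NQO1, by Pearson's r with group means subtracted, were PPIH, a cyclophilin of the spliceosome (r = 0.98), KNSTRN, of the mitotic kinetochore (0.92), SGO1, which protects centromeric cohesion (0.91), PROM2 (0.91), the nucleoside transporter SLC29A1 (0.90) and SPATA4 (0.90), while the fatty acid carrier SLC27A1 (-0.91) and the monocarboxylate carrier SLC16A7 (-0.90) ran opposite. They were picked for their r among 10881 genes and carry no test. PPIH was 8.86 to 9.13 in the CA and 8.97 to 9.17 in the SA piglets.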
